A study of Mus musculus with 4 samples.

Results

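Among the alternative splicing (AS) events listed for mouse endothelial cells (ECs) that overexpressed NOVA2, 77 of 1075 events lay in 63 of 869 genes for zinc finger proteins and chromatin regulators. A gene belonged to this set when its symbol began with one of a fixed set of letters, among them Zfp, Zbtb, Zkscan, Zmym, Zmiz, Zc3h, Phf, Kdm, Mll, Setd, Brd, Chd, Smarc, Arid, Hdac, Baz, Suv, L3mbtl, Pbrm, Ncor, Mbd and Atrx. The rule reads symbols and not measured values, but it was drawn up with earlier results of these data known. The letters also caught Katnal2, a relative of the catalytic subunit of the microtubule-severing enzyme katanin, which is neither a zinc finger protein nor a chromatin regulator. They caught Taf1d as well, which belongs to the RNA polymerase I machinery.

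RNA was sequenced from 2 libraries of control ECs and 2 libraries of NOVA2-overexpressing ECs. All 4 came from the mouse EC line moEC after stable lentiviral transduction, either with HA-tagged human NOVA2 under the CMV promoter or with the empty HA vector. NOVA2 was therefore driven by a constitutive viral promoter and not by its own gene, and every group shared the transduction. Whether the duplicates of a group were grown as separate cultures is not given in the sources used here, so the spread between the libraries of a group may be technical. The level of NOVA2 and of endothelial markers was not analysed here, because the table holds splicing values only.

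Zinc finger transcription factors bind DNA, and many of the KRAB family recruit repressors. Chromatin regulators write, remove or read marks on histone tails, or move nucleosomes with the energy of ATP. NOVA proteins bind clusters of the RNA tetramer YCAY, where Y is C or T in the DNA letters, and are known to favour skipping from within the exon or the intron before it and inclusion from the intron after it.

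For each event the authors gave the percent spliced in (PSI), which is the share of informative reads that include an exon, keep an intron or use a given splice site. The difference in PSI, dPSI, is the PSI averaged over the NOVA2-overexpressing libraries less that averaged over the control libraries, in percentage points. The deposited list holds only events in which any control library and any NOVA2-overexpressing library lay more than 5 points apart, and the narrowest gap in the set was 5.01 points. Groups that do not overlap are therefore fixed by the list and are no result. The median event of the set had 46 reads in control replicate 1, 52 in control replicate 2, 76.5 in NOVA2-overexpressing replicate 1 and 72 in NOVA2-overexpressing replicate 2, so the control libraries were the thinner ones. The median distance between replicates was 2.27 points for control and 2.28 points for NOVA2-overexpressing libraries. At most, replicates were 22.9 points apart in control and 18.3 points apart in NOVA2-overexpressing libraries. Reads were compared by a two-sided Fisher's exact test after adding up the libraries of each group, with Benjamini-Hochberg adjustment across the 1075 events. That test covers the counting of reads and not the spread between libraries of a group, so it compares libraries and not conditions. It follows a selection on the same difference, so its adjusted p is not a false discovery rate. An exact permutation test with 2 libraries against 2 cannot give a two-sided p under 0.333. Intervals are 95% Wilson intervals of the reads and cover counting error only.

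Sequences at exons of Mll5, Pbrm1, Setd5 and Zfp202 are shown first. Exons of Zfp426, Zfp518a and Zfp644 also changed by at least 10 points and are not printed. The tetramer counts shown therefore do not stand for the set. The printed sequences were not picked by a fixed rule. They were read from the mm9 genome on the transcribed strand, 5′ to 3′, and every YCAY tetramer (TCAT or TCAC, and likewise CCAT or CCAC, with overlapping ones counted) is in capitals. Mll5 and Pbrm1 lost exon inclusion in NOVA2-overexpressing ECs. Their exons are shown for the tetramers inside them, and for Pbrm1 the intron after the exon is shown too, because tetramers also lie there. The exon of Mll5 is at chr5:23006269-23006394 on the plus strand. The exon of Pbrm1 is at chr14:31927035-31927190 on the plus strand, and the start of the intron after it is at chr14:31927191-31927290.
Mll5 exon: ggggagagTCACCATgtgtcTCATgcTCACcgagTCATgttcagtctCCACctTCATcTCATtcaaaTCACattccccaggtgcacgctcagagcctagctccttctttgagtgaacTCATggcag
Pbrm1 exon: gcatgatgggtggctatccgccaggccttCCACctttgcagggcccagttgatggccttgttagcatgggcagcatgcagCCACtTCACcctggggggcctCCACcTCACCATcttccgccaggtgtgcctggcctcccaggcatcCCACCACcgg
Pbrm1 intron start: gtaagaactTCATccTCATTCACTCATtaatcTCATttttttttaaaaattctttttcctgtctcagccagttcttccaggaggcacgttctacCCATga
The Mll5 exon held 10 tetramers, or 7.94 for each 100 nt, and 1.09% of the 549 deposited cassette exons were at least as dense. The Pbrm1 exon held 8, or 5.13 for each 100 nt, a density that 5.83% of deposited cassette exons reached. The 200 nt after the Pbrm1 exon also held 8, which 5.46% reached, and 6 of these lay in the first 100 nt. At least 1 tetramer was found in 78.5% of the deposited cassette exons, so its presence alone sets no exon apart.

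Setd5 and Zfp202 gained inclusion. The intron after the exon is shown for Zfp202 and for the shorter of the Setd5 exons. The shorter Setd5 exon, of 48 nt, is at chr6:113057899-113057946 and the longer, of 71 nt, at chr6:113058415-113058485, both on the plus strand. The intron start after the shorter exon is at chr6:113057947-113058046. The stretch after the Zfp202 exon is at chr9:40018146-40018345 on the plus strand.
Setd5 exon of 48 nt: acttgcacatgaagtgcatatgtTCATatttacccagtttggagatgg
Setd5 intron start: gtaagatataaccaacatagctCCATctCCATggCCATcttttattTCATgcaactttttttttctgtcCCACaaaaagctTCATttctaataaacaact
Setd5 exon of 71 nt: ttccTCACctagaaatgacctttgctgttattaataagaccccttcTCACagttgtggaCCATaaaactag
Zfp202 intron start: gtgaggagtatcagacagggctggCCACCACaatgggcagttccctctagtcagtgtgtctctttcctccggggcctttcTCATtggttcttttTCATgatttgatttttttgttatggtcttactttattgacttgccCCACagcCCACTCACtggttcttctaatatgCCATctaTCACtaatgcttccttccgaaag
The first 100 nt after the shorter Setd5 exon held 6 tetramers, a number that 1.82% of the deposited cassette exons reached and that the Pbrm1 exon, with lower inclusion, had as well. Over 200 nt the count was 8 after both exons. The 200 nt after the Zfp202 exon held 9, which 3.28% reached. Other exons that gained at least 10 points had fewer after them, with 3 for the longer Setd5 exon, 3 for Zfp518a and 1 for Zfp644. The longer Setd5 exon had 6 in the 200 nt before it. The Zfp426 exon, with lower inclusion, held 2, with 5 before it and 4 after it. At least 1 tetramer stood in the 200 nt after 95.3% and before 94.9% of all deposited cassette exons. These counts describe letters in a window and do not show binding.

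**Figure D1:**
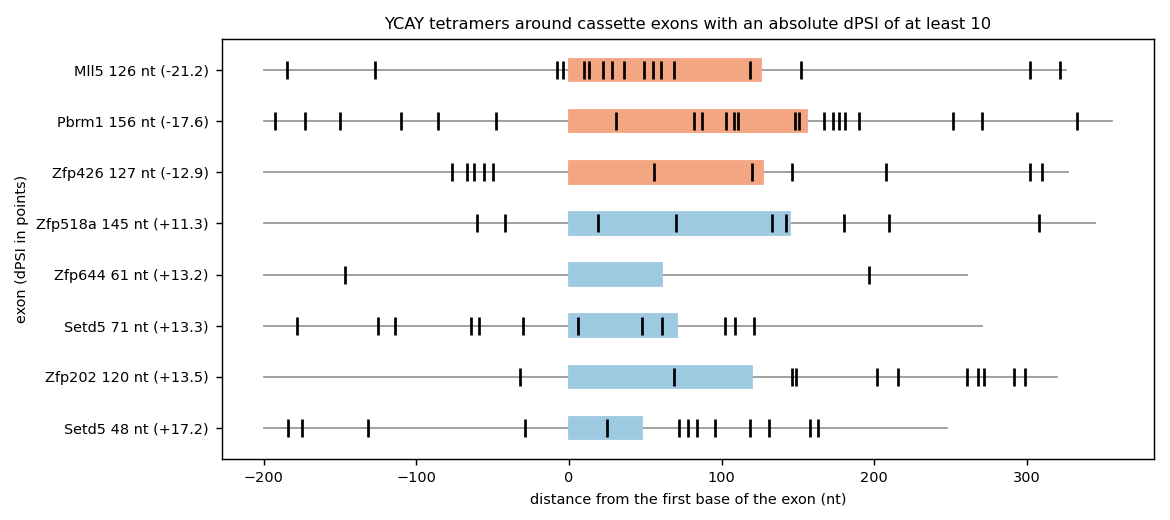
Positions of YCAY tetramers (vertical ticks) around the 8 cassette exons of the set with an absolute dPSI of at least 10 points, against the distance in nt from the first base of the exon. Boxes are exons (orange, lower PSI; blue, higher PSI in NOVA2-overexpressing ECs) and lines are the 200 nt of intron on each side; ticks crowd in the exons of Mll5 (10) and Pbrm1 (8) and after the exons of Zfp202 (9), Pbrm1 (8) and the shorter Setd5 exon (8), whereas Zfp644 has none in its exon.

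Of the 77 events, 57 had higher and 20 lower PSI in NOVA2-overexpressing ECs. This balance rests on the event classes, since alternative splice sites are listed only with the site whose PSI was higher. The 31 cassette exons, which are included whole or skipped, were 15 higher and 16 lower. The 19 retained introns were 15 higher and 4 lower, and the 16 alternative 3′ splice sites (Alt3) and 11 alternative 5′ splice sites (Alt5) were all higher. Over all deposited events, 37.3% of the cassette exons were higher, against 48.4% in the set, and 78.8% of the introns, against 78.9%. The median absolute dPSI was 9.78 points in the set and 10.3 points over all deposited events. An absolute dPSI of at least 10 points was reached by 36 events (46.8%), where 53.1% of all deposited events did.

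In Fisher's exact test, 42 of the 77 events had an adjusted p under 0.05 (54.5%), against 55.9% of all deposited events. Of these, 27 were higher (35.1%, against 30.7%) and 15 lower (19.5%, against 25.2%). By class, the test was passed by 23 of 31 cassette exons (74.2%, against 70.1%), 7 of 19 introns (36.8%, against 40.2%), 5 of 16 Alt3 sites (31.2%, against 42.9%) and 7 of 11 Alt5 sites (63.6%, against 41.7%). In its overall share of passing events the set was near the rest of the list. Passing went with coverage: 16 of the 17 events with the top coverage score in every library passed and 1 of the 18 with the lowest score in any (5.56%). Over all deposited events, 91.9% of those with the top score and 25.7% of those with the lowest passed. limma on the ratio of inclusion to exclusion reads called 63 of the 77 (81.8%), against 88.7% of all deposited events. Quasi-binomial regression takes its error from the spread between libraries, which may lie above or below counting error. It called 19 of the 77 (24.7%), against 23.8% of all deposited events. Of the 42 events that passed Fisher's exact test it called 13 and not the other 29. Its remaining calls did not pass Fisher's exact test. When each library was left out in turn, 9 of the 42 events passed in all 4 fits. They were the cassette exons of Mll5, Pbrm1, Zmiz1, L3mbtl3 and Suv420h1, both Setd5 exons, the Brd9 Alt3 site and the Zfp444 Alt5 site. Quasi-binomial regression did not call those of Pbrm1, Zmiz1 and L3mbtl3 (adjusted p = 0.0735, 0.0542 and 0.133).

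**Figure D2:**
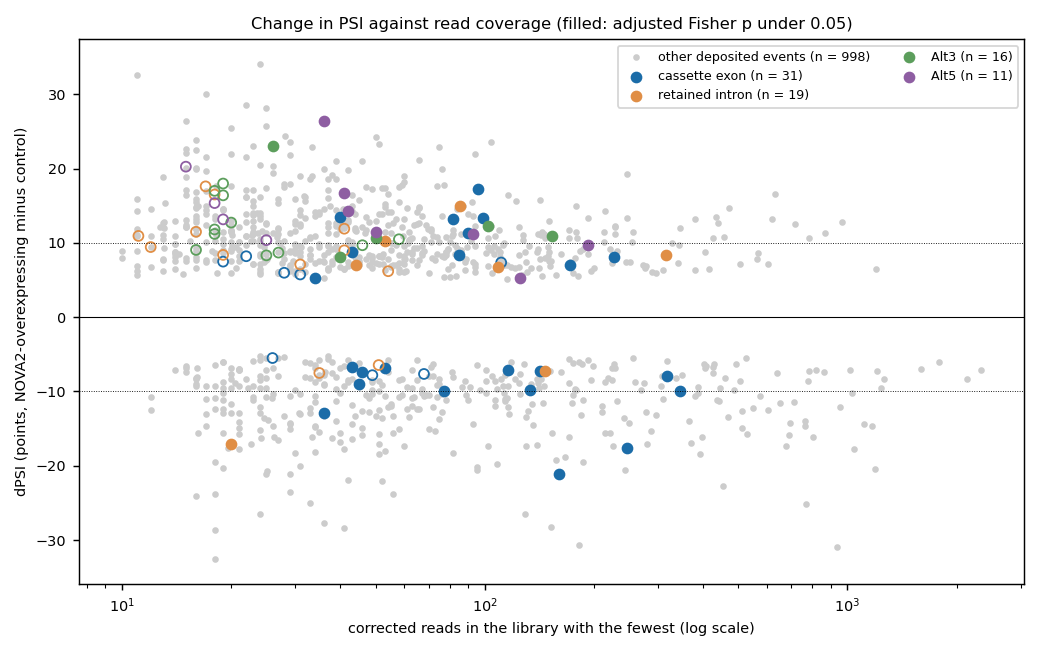
The dPSI of each event in percentage points (NOVA2-overexpressing minus control) against the corrected reads of the library with the fewest, on a log axis. Grey points are the other deposited events and coloured circles the 77 events of the set by class, filled where Fisher's exact test passed after adjustment; open circles lie mostly at low coverage, and dotted lines mark 10 points in either direction.

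Histone methyltransferases and their relatives held 11 events in 9 genes, of which 9 were higher and 2 lower. Fisher's exact test was passed by 8 of them (6 higher, 2 lower). For this family and those below, the share that passed among all deposited events was 55.9%, and 61.9% of all deposited events were higher. Counts of higher events in a family include alternative sites, which are listed only where higher. The family has a shared chemistry, the transfer of methyl groups by a SET domain, although such activity is little established for Mll5, and Mllt10 is a partner of a methyltransferase. Inclusion of the 126-nt coding exon of Mll5 was 91.6% and 94.6% in control replicates 1 and 2 and 73.2% and 70.8% in NOVA2-overexpressing replicates 1 and 2. The Wilson intervals of the control libraries, 86.6 to 95.2% and 90.6 to 96.8%, lay clear of 67.5 to 78.0% and 65.0 to 75.9% in the NOVA2-overexpressing libraries. Inclusion thus fell by 21.2 points, from 93.1% ± 2.14 to 72.0% ± 1.68 (SD, n = 2 each), over 160 to 271 reads a library (Fisher's exact test, adjusted p = 5.36e-16). Its length is a multiple of 3 and it is read through without a stop codon, so both forms keep the frame.

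Setd5, a chromatin regulator close to Mll5 in its SET domain, went the other way at a pair of neighbouring exons that the annotation used here does not list. Inclusion of the 48-nt exon was 0.53% and 1.85% in control replicates 1 and 2 and 16.5% and 20.3% in NOVA2-overexpressing replicates 1 and 2. It rose by 17.2 points, from 1.19% ± 0.93 to 18.4% ± 2.67 (SD, n = 2 each; Fisher's exact test, adjusted p = 3.68e-09). The 71-nt exon was included at 0.50% and 0.87% in the control libraries and at 14.7% and 13.3% in the NOVA2-overexpressing libraries. Its PSI rose by 13.3 points (Fisher's exact test, adjusted p = 1.51e-08). In the controls these exons were close to absent, with upper interval bounds between 3.77 and 6.50%, and no NOVA2-overexpressing library had a lower bound under 8.38%. The exons lie in the same intron and share a junction, so their reads are not independent. The 48-nt exon is a multiple of 3 in length and the 71-nt exon is not.

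Retention of a 599-nt intron of Setd1a, an H3K4 methyltransferase, was 29.2% and 37.1% in control replicates 1 and 2 and 44.6% and 51.7% in NOVA2-overexpressing replicates 1 and 2. It rose by 15.005 points (Fisher's exact test, adjusted p = 0.00819), but the reads at the 2 ends of the intron were out of balance in NOVA2-overexpressing replicate 2. The call was lost without control replicate 1 (adjusted p = 0.154) and without NOVA2-overexpressing replicate 2 (adjusted p = 0.0994).

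Mll2, an H3K4 methyltransferase of enhancers, had a 156-nt intron and an Alt3 site in the list. The intron was retained at 7.33% and 9.81% in the control libraries and at 17.6% and 19.97% in the NOVA2-overexpressing libraries, a rise of 10.2 points (Fisher's exact test, adjusted p = 0.0456). That call was lost when any 1 library was left out (adjusted p = 0.0670 to 0.173). The Alt3 site, which adds 93 nt, was used at 90.9% and 83.4% in control and at 96.7% and 100% in NOVA2-overexpressing libraries. It did not pass (Fisher's exact test, adjusted p = 0.0831), and the library at 100% had 18 reads, which allow up to 16.7% of other sites.

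Exons of Setd6, Suv420h1 and Setd4, chosen after their values were seen, completed the methyltransferases that passed. Setd6, which methylates a subunit of NF-kappaB, had a 142-nt exon included at 100% in both control libraries, where 3 reads would have made 6.67% and 4.48%, and at 91.8% and 90.1% in the NOVA2-overexpressing libraries. Inclusion fell by 9.06 points (Fisher's exact test, adjusted p = 0.00139), a call lost without control replicate 2 (adjusted p = 0.0753). A 197-nt exon of Suv420h1, an H4K20 methyltransferase, was included at 86.0% and 86.7% in control and 93.1% and 93.5% in NOVA2-overexpressing libraries (Fisher's exact test, adjusted p = 0.00477). For Setd4 the PSI of an 86-nt exon rose by 8.81 points (Fisher's exact test, adjusted p = 0.0186), and the call held only without NOVA2-overexpressing replicate 1, with an adjusted p of 0.0534 to 0.133 without the other libraries. An exon of Mllt10 and a long intron of Mll3 did not pass (Fisher's exact test, adjusted p = 0.104 and 0.165).

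**Figure D3:**
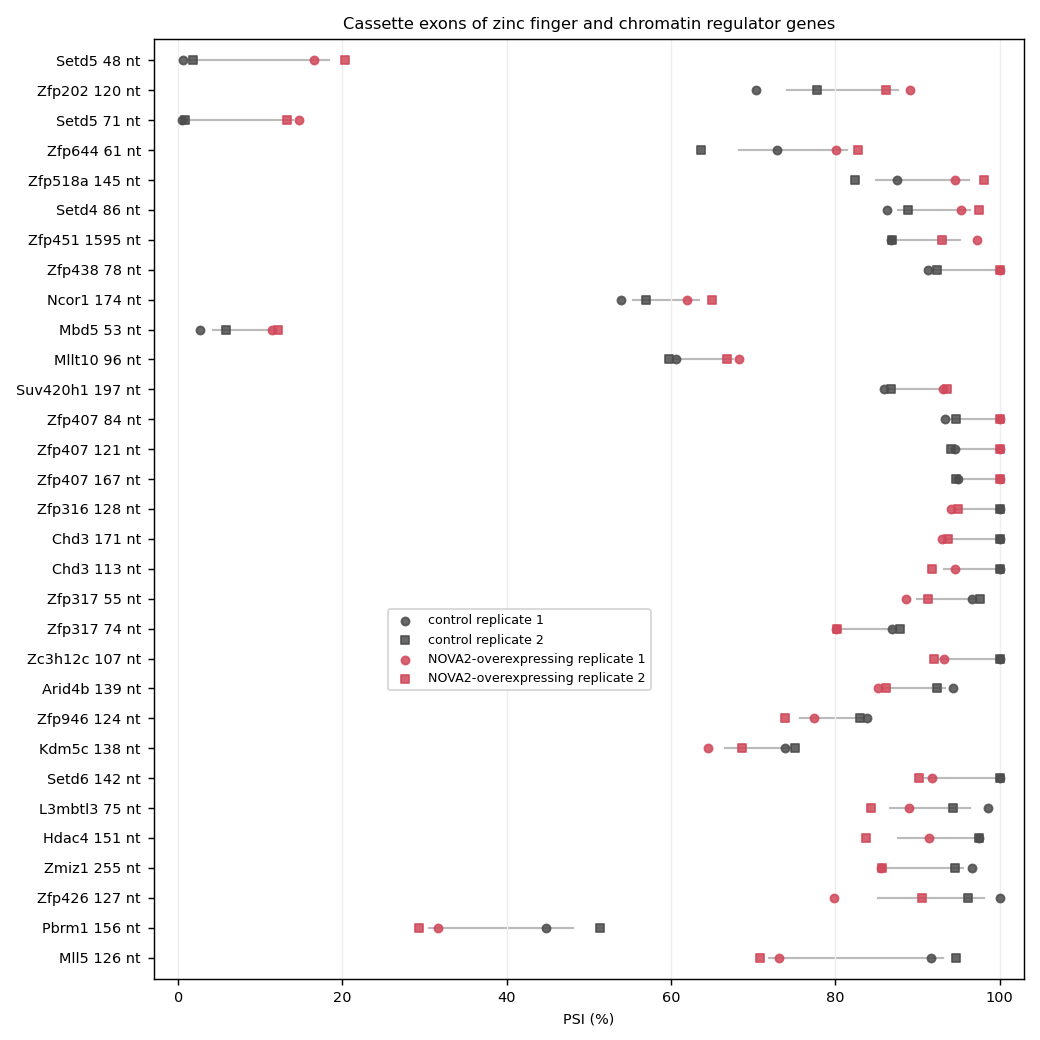
PSI in percent of the 31 cassette exons of the set in each library, ordered by dPSI. Grey symbols are control and red symbols NOVA2-overexpressing libraries (circles replicate 1, squares replicate 2), and a line joins the group means; the Setd5 exons move from near 0 at the top, those of Mll5 and Pbrm1 move furthest down, and most others lie above 60%.

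Chromatin remodellers, which slide, evict or exchange nucleosomes, held 8 events in 5 genes, with as many higher (4) as lower (4), and 5 met the threshold of Fisher's exact test (2 higher, 3 lower). Alternative sites, listed only where higher, made up 4 of the 8. The 156-nt exon of Pbrm1, the polybromo subunit that defines the PBAF complex, was included at 44.8% and 51.4% in control replicates 1 and 2. In NOVA2-overexpressing replicates 1 and 2 inclusion was 31.6% and 29.3%. The fall of 17.6 points, from 48.1% ± 4.68 to 30.5% ± 1.61 (SD, n = 2 each), rested on 246 to 426 reads a library (Fisher's exact test, adjusted p = 1.59e-10). Quasi-binomial regression did not call it (adjusted p = 0.0735). The exon is coding and keeps the frame.

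An Alt5 site of Pbrm1, far upstream in the gene, had the largest absolute dPSI of the 77 events. It was used at 77.6% and 54.7% in the control libraries and at 85.2% and 100% in the NOVA2-overexpressing libraries. The rise of 26.4 points (Fisher's exact test, adjusted p = 5.71e-05) stood on 36 to 54 reads, and the control libraries were 22.9 points apart. Without control replicate 2 the dPSI was 14.98 points and the call was lost (adjusted p = 0.0987), as it was in limma (adjusted p = 0.0766).

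Chd3, a helicase of the NuRD complex, had 3 listed events in one stretch of the gene. A 113-nt coding exon was included at 100% in both control libraries, with 3 reads equal to 5.66% and 4.17%, and at 94.6% and 91.7% in the NOVA2-overexpressing libraries. Inclusion fell by 6.84 points (Fisher's exact test, adjusted p = 0.00635). The next exon, of 171 nt, was at 100% in both control libraries, with 3 reads equal to 6.98% and 4.62%, and at 92.9% and 93.7% in the NOVA2-overexpressing libraries (Fisher's exact test, adjusted p = 0.0173). Both calls were lost without control replicate 1 (adjusted p = 0.0524 and 0.0743) or control replicate 2 (adjusted p = 0.137 and 0.191). The third event, an acceptor of the exon that follows, was used at 5.56% and 0% in control and 24.8% and 14.8% in NOVA2-overexpressing libraries, on 18 to 22 reads. Its dPSI of 17.0 points did not pass (Fisher's exact test, adjusted p = 0.0514), but it passed without NOVA2-overexpressing replicate 2 (adjusted p = 0.0389). Neighbouring events share reads and are not separate evidence.

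Atrx, a remodeller of heterochromatin, was the remaining remodeller that passed and was named after its values were seen. The acceptor that adds 3 nt was used at 73.0% and 74.5% in control and 86.9% and 82.2% in NOVA2-overexpressing libraries (Fisher's exact test, adjusted p = 0.0396), and the call was lost when any 1 library was left out (adjusted p = 0.0510 to 0.243). Smarca2, the BRM ATPase, and Arid4b, a subunit of the SIN3 corepressor, did not pass (Fisher's exact test, adjusted p = 0.109 and 0.0638).

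Deacetylases and their corepressors held 7 events in 5 genes, and all 7 passed Fisher's exact test, 6 higher and 1 lower. Alternative sites, listed only where higher, made up 4 of the 7. Of all deposited events 55.9% passed, with 70.1% of cassette exons, 40.2% of introns, 42.9% of Alt3 sites and 41.7% of Alt5 sites. The lowest coverage score of each of the 7 was the top score or the one below it. At these scores 91.9% and 58.8% of deposited events passed. Beyond the count of passing events nothing was tested for the family. NCOR1 is a scaffold that brings HDAC3 to nuclear receptors. Its 2 events both moved toward the longer form, and both lengths are multiples of 3. A 174-nt coding exon of Ncor1 was included at 53.9% and 56.9% in control replicates 1 and 2 and at 62.0% and 64.9% in NOVA2-overexpressing replicates 1 and 2. Its PSI rose by 8.04 points over 227 to 383 reads a library (Fisher's exact test, adjusted p = 0.0145). An Alt3 site of Ncor1 that adds 168 nt was used at 48.5% and 49.7% in control and 62.9% and 57.2% in NOVA2-overexpressing libraries. Its use rose by 10.9 points (Fisher's exact test, adjusted p = 0.00589).

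Neither Ncor1 call held in all 4 fits that left out a library. The exon was lost without control replicate 1 (adjusted p = 0.126) and without NOVA2-overexpressing replicate 2 (adjusted p = 0.102). The Alt3 site was lost without NOVA2-overexpressing replicate 1 (adjusted p = 0.101).

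Of the deacetylases, Hdac6, the cytoplasmic enzyme that acts on tubulin, had an Alt5 site in its 5′ UTR. It was used at 10.9% and 14.3% in control and 25.9% and 27.9% in NOVA2-overexpressing libraries, a rise of 14.3 points on 42 to 68 reads (Fisher's exact test, adjusted p = 0.0190). The call held only without NOVA2-overexpressing replicate 1, and the adjusted p without the other libraries was 0.0598 to 0.217. Hdac4 and Hdac5, class IIa enzymes that shuttle between cytoplasm and nucleus, were named after their values were seen. A 151-nt coding exon of Hdac4, whose length is not a multiple of 3, was included at 97.4% and 97.5% in control and 91.4% and 83.7% in NOVA2-overexpressing libraries (Fisher's exact test, adjusted p = 0.00277). It was lost without control replicate 2 (adjusted p = 0.0539) and NOVA2-overexpressing replicate 2 (adjusted p = 0.0715). A 132-nt intron of Hdac5 was retained at 2.31% and 1.72% in control and 7.47% and 10.7% in NOVA2-overexpressing libraries (Fisher's exact test, adjusted p = 0.0304), and its call held only without NOVA2-overexpressing replicate 1 (adjusted p = 0.115 to 0.293 without the others).

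Readers, which dock on acetylated or methylated histones, held 7 events in 6 genes, 6 of them higher and 1 lower. Alternative sites, listed only where higher, made up 4 of the 7. In Fisher's exact test 4 passed (3 higher, 1 lower). Brd9, a bromodomain subunit of the non-canonical BAF complex, used an Alt3 site that adds 63 nt at 9.79% and 9.08% in control replicates 1 and 2. In NOVA2-overexpressing replicates 1 and 2 its use was 21.9% and 21.4%. The rise of 12.2 points over 102 to 182 reads a library passed (Fisher's exact test, adjusted p = 7.13e-04) and held in all fits that left out a library (adjusted p up to 0.0269). An Alt5 site of Baz2b, a bromodomain protein, was used at 16.7% and 22.4% in control and 35.9% and 36.7% in NOVA2-overexpressing libraries. Its use rose by 16.7 points (Fisher's exact test, adjusted p = 0.0173), and the call was lost when any 1 library was left out (adjusted p = 0.0560 to 0.202).

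Phf1, a Polycomb-associated Tudor and PHD finger protein, had 2 events. An acceptor that adds 3 nt was used at 87.5% and 91.7% in control and 97.3% and 98.0% in NOVA2-overexpressing libraries (Fisher's exact test, adjusted p = 0.0419), a call lost when any 1 library was left out (adjusted p = 0.0673 to 0.192). A 100-nt intron of Phf1 was retained at 5.88% and 11.1% in control and at 26.9% and 23.1% in NOVA2-overexpressing libraries. Its dPSI of 16.5 points did not pass on 18 to 40 reads (Fisher's exact test, adjusted p = 0.0767). The lower event was a 75-nt coding exon of L3mbtl3, a methyl-lysine reader named after its values were seen, which was included at 98.5% and 94.4% in control and 89.0% and 84.4% in NOVA2-overexpressing libraries. Inclusion fell by 9.78 points (Fisher's exact test, adjusted p = 8.24e-05; quasi-binomial regression, adjusted p = 0.133). Phf21a and Mbd5 did not pass (Fisher's exact test, adjusted p = 0.0978 and 0.515).

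Demethylases held 3 events in 2 genes. Kdm4b, an H3K9 demethylase, had an Alt3 site used at 8.22% and 13.2% in control and 19.8% and 18.3% in NOVA2-overexpressing libraries, and the intron after that exon was retained at 7.03% and 7.02% against 14.1% and 12.3%. Neither passed (Fisher's exact test, adjusted p = 0.279 and 0.161). A 138-nt exon of Kdm5c, an H3K4 demethylase encoded on the X chromosome and named after its values were seen, was included at 73.8% and 75.0% in control and 64.5% and 68.6% in NOVA2-overexpressing libraries. Inclusion fell by 7.88 points over 319 to 496 reads (Fisher's exact test, adjusted p = 0.00157). The call was lost without control replicate 2 (adjusted p = 0.0509) and NOVA2-overexpressing replicate 1 (adjusted p = 0.0717).

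Zinc finger transcription factors were the largest family, with 34 events in 29 genes, 25 higher and 9 lower. They comprised 13 cassette exons, 11 introns and 10 alternative sites, the last listed only where higher. Fisher's exact test was passed by 13 of the 34 (8 higher, 5 lower), where 55.9% of all deposited events passed. By class, 70.1% of deposited cassette exons, 40.2% of introns, 42.9% of Alt3 sites and 41.7% of Alt5 sites passed. The median absolute dPSI was 9.24 points, against 10.3 points over all deposited events. Zfp426, a KRAB zinc finger protein, lost inclusion of the 127-nt exon that encodes its KRAB box. The exon was included at 100% and 96.2% in control replicates 1 and 2 and at 79.8% and 90.6% in NOVA2-overexpressing replicates 1 and 2. Inclusion fell by 12.9 points on 36 to 81 reads (Fisher's exact test, adjusted p = 0.00609), and the NOVA2-overexpressing libraries themselves were 10.8 points apart. The call was lost without control replicate 1 (adjusted p = 0.112), without NOVA2-overexpressing replicate 1 (adjusted p = 0.105) and in limma (adjusted p = 0.0660). An Alt3 site in the 5′ UTR of the same gene, which adds 121 nt, was used at 3.69% and 0% in control and 8.86% and 12.2% in NOVA2-overexpressing libraries and did not pass (Fisher's exact test, adjusted p = 0.105).

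Zfp202, a SCAN and KRAB zinc finger repressor, gained inclusion of a 120-nt exon, at 70.4% and 77.8% in control and 89.1% and 86.1% in NOVA2-overexpressing libraries. The PSI rose by 13.5 points (Fisher's exact test, adjusted p = 0.0351), and the call held only without control replicate 2. The adjusted p without the other libraries was 0.0994 to 0.209. A 61-nt exon of Zfp644, which carries the start codon, was included at 72.9% and 63.6% in control and 80.1% and 82.7% in NOVA2-overexpressing libraries. It rose by 13.2 points (Fisher's exact test, adjusted p = 0.00484), and without control replicate 2 the dPSI was 8.54 points and the call was lost (adjusted p = 0.250). A 145-nt exon of Zfp518a that the annotation does not list was included at 87.5% and 82.3% in control and 94.5% and 98.0% in NOVA2-overexpressing libraries. It rose by 11.3 points (Fisher's exact test, adjusted p = 0.00125), and the adjusted p without NOVA2-overexpressing replicate 2 was 0.0535.

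Zfp317 and Zfp407 had more than 1 listed exon. In Zfp317, a KRAB zinc finger gene, a 55-nt exon was included at 96.6% and 97.6% in control and 88.6% and 91.3% in NOVA2-overexpressing libraries (Fisher's exact test, adjusted p = 0.00212; without control replicate 2, 0.0808). Its 74-nt exon was included at 86.9% and 87.9% in control and 80.1% and 80.3% in NOVA2-overexpressing libraries (Fisher's exact test, adjusted p = 0.0273), a call lost when any 1 library was left out (adjusted p = 0.0720 to 0.175). Neither length is a multiple of 3. The 3 exons of Zfp407 follow each other and were all included at 100% in both NOVA2-overexpressing libraries. In control replicates 1 and 2 the exon of 167 nt was at 94.9% and 94.7%, that of 121 nt at 94.5% and 94.0%, and that of 84 nt at 93.4% and 94.7%. The exon of 167 nt passed and the others did not (Fisher's exact test, adjusted p = 0.0465, 0.0544 and 0.0623), and its call was lost when any 1 library was left out (adjusted p = 0.130 to 0.201). In the NOVA2-overexpressing libraries 3 reads would have made 5.56 to 8.33%. At this depth 100% in a single library therefore still allows skipping at the level of the controls.

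A 3835-nt intron of Zfp101 was retained at 34.0% and 36.7% in control and 48.1% and 46.4% in NOVA2-overexpressing libraries and did not pass (Fisher's exact test, adjusted p = 0.0820). A 290-nt intron of Zfp688 was at 43.9% and 46.3% against 51.4% and 56.8% (Fisher's exact test, adjusted p = 0.274). Zfp446 had an intron at 6.67% in both control libraries and at 12.5% and 23.8% in the NOVA2-overexpressing libraries (Fisher's exact test, adjusted p = 0.215). Its Alt5 site, which is the donor of that same intron, was at 66.7% and 63.6% against 72.4% and 84.2% (Fisher's exact test, adjusted p = 0.266). Both Zfp446 events had 16 to 29 reads a library.

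Among events named after their values were seen, Zfp444 used an Alt5 site at 0% in both control libraries. There 3 reads would have made 2.40% and 1.67%. The site was used at 5.49% and 5.15% in the NOVA2-overexpressing libraries (Fisher's exact test, adjusted p = 6.16e-05). An 8350-nt intron of Zfp341 was the only intron of the set with an absolute dPSI of at least 10 points that was lower. It was retained at 10.3% and 25.9% in control and 2.04% and 0% in NOVA2-overexpressing libraries, on 20 to 31.2 reads, and fell by 17.1 points (Fisher's exact test, adjusted p = 0.00816). The call was lost without control replicate 2 (adjusted p = 0.229) and NOVA2-overexpressing replicate 2 (adjusted p = 0.120). The other zinc finger factors that passed were Zfp451, Zfp263, Zfp335 and Zfp280b, each with an absolute dPSI between 6.79 and 11.4 points. Calls of Zfp263 and Zfp335 were lost when any 1 library was left out (adjusted p = 0.0814 to 0.225). The call of Zfp451 was lost without control replicate 2 (adjusted p = 0.0688) or NOVA2-overexpressing replicate 1 (adjusted p = 0.162), and that of Zfp280b held only without NOVA2-overexpressing replicate 1 (adjusted p = 0.0775 to 0.131 without the others).

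MYM and MIZ zinc finger proteins held 3 events in 3 genes, of which 2 passed. Zmym2, a component of a repressive complex with LSD1, had an Alt3 event in its 5′ UTR at 51.7% and 46.4% in control and 69.2% and 75.0% in NOVA2-overexpressing libraries. The use of that site rose by 23.0 points on 26 to 29 reads (Fisher's exact test, adjusted p = 0.0389), and the call was lost when any 1 library was left out (adjusted p = 0.0778 to 0.170). The competing site lies 1 nt upstream and follows CA, whereas the site that gained use follows AG. Whether the competing site is a true acceptor was not tested. Zmiz1, a coactivator with a MIZ finger that was named after its values were seen, included a 255-nt coding exon at 96.6% and 94.5% in control and 85.6% and 85.7% in NOVA2-overexpressing libraries. Inclusion fell by 9.93 points over 345 to 683 reads a library (Fisher's exact test, adjusted p = 1.10e-12; quasi-binomial regression, adjusted p = 0.0542). That exon held 11 YCAY tetramers, or 4.31 for each 100 nt, a density that 9.47% of deposited cassette exons reached. Such a count did not go with lower inclusion throughout the set. The 167-nt exon of Zfp407 held 8 and had higher PSI, with a dPSI of 5.22 points. The median number in the exon was 2 for exons of the set with lower PSI and 2 for those with higher PSI.

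Of the CCCH zinc fingers, which bind RNA, a 107-nt exon of Zc3h12c passed, with 100% in both control libraries and 93.3% and 92.0% in the NOVA2-overexpressing libraries (Fisher's exact test, adjusted p = 0.00575). Its call was lost without control replicate 1 (adjusted p = 0.0586) or 2 (adjusted p = 0.145). Zc3h13, a member of the m6A writer complex, did not pass (Fisher's exact test, adjusted p = 0.0543). An 837-nt intron of Taf1d was retained at 34.1% and 34.3% in control and 40.0% and 45.1% in NOVA2-overexpressing libraries, on 317 to 530 reads (Fisher's exact test, adjusted p = 0.00156), and was lost without NOVA2-overexpressing replicate 2 (adjusted p = 0.0756). Katnal2 did not pass (Fisher's exact test, adjusted p = 0.0840).

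**Figure D4:**
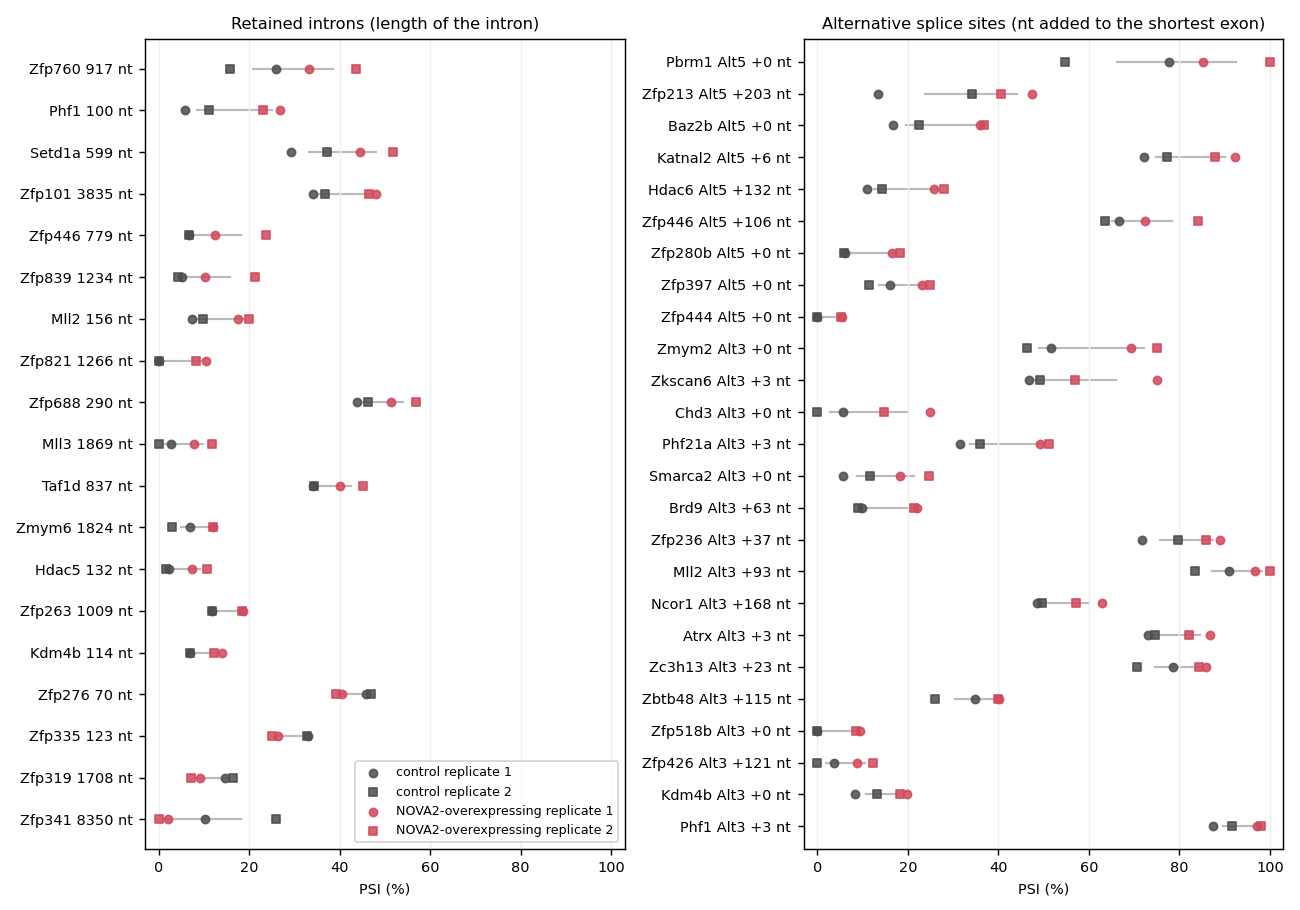
PSI in percent of the 19 retained introns (left) and the alternative splice sites (right) of the set in each library, without those of 1 gene that is not reported. Symbols and lines are as for the cassette exons (grey control, red NOVA2-overexpressing, circles replicate 1, squares replicate 2, lines between group means); 4 introns at the bottom left have lower PSI in NOVA2-overexpressing ECs, all sites are higher because only such sites are listed, and the control libraries are furthest apart for the Pbrm1 Alt5 site.

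A group of acceptors differed by a single codon. In 6 of the 16 Alt3 events (37.5%) the choice was between 2 acceptors 3 nt apart, where 30.3% of the 119 deposited Alt3 events were of this kind. The sequences are shown on the transcribed strand of mm9, with both competing AG dinucleotides in capitals, so that the positions of the acceptors can be read. The coordinates are chrX:103075348-103075377 (minus strand) for Atrx, chr17:27073979-27074008 (plus) for Phf1, chr2:92167050-92167079 (plus) for Phf21a, chr11:65636307-65636336 (plus) for Zkscan6, chr11:69177237-69177266 (minus) for Chd3 and chr19:26738521-26738550 (plus) for Smarca2.
Atrx: tgatcattctttgctcctAGaAGatggact
Phf1: ttgcctgtccccaacctcAGcAGccctatc
Phf21a: ctgttctccgtgtctcctAGaAGactgtaa
Zkscan6: acaaaatttctctctctcAGtAGcaggcat
Chd3: ccatcctgtcccccactcAGcAGgtggagc
Smarca2: ttgactgtgttgttttacAGaAGgctgaag
The upstream AG gained use in Atrx, Phf1, Phf21a and Zkscan6 and the downstream AG in Chd3 and Smarca2, as the deposited values place them. Over all deposited events of this kind, the upstream acceptor was higher in 25 and the downstream acceptor in 11. Atrx and Phf1 passed Fisher's exact test and the other 4 did not. In Phf21a, a reader of unmodified H3K4 named after its values were seen, the upstream acceptor was used at 31.6% and 35.9% in control and 49.1% and 51.1% in NOVA2-overexpressing libraries. In Zkscan6 it was used at 46.9% and 49.1% in control and at 75.2% and 56.8% in NOVA2-overexpressing libraries, which were 18.3 points apart.

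Several features of the set were not used to choose it. Of the 31 cassette exons, 12 had a length that is a multiple of 3 (38.7%), against 289 of the 549 deposited ones (52.6%). The median length was 124 nt against 105 nt, 23 of the 31 were coding in at least 1 annotated transcript, and 6 were not annotated with these ends. All 31 were preceded by AG and followed by GT. Per exon, the mean number of YCAY tetramers was 3.13 in the 200 nt before, 3.61 in the exon and 3.65 in the 200 nt after, against 3.69, 2.80 and 3.44 over all deposited cassette exons. Per 100 nt of exon it was 2.16 in the set and 1.94 over all. The median number in the exon was 2 in the set and 2 over all, and the 1595-nt exon of Zfp451 alone held 31. Exons of the set with lower PSI had 2.26 and those with higher PSI 2.10 for each 100 nt. Over all deposited cassette exons these values were 2.15 and 1.63. They pool the bases of all exons, so the long Zfp451 exon weighs heavily among those of the set with higher PSI.

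The 19 introns had a median length of 837 nt, against 538 nt for all deposited introns, and ran from 70 to 8350 nt. The reading frame entering the intron was known for 14, and 11 of these met an in-frame stop codon when retained. The introns of Hdac5 (132 nt), Kdm4b (114 nt) and Mll2 (156 nt) were open throughout and multiples of 3 in length, and all 3 were more retained in NOVA2-overexpressing libraries, although only those of Hdac5 and Mll2 passed. Open introns made up 21.4% of those with a known frame in the set and 10.2% of 275 over the list. Of the 27 alternative sites, 15 had all competing sites a multiple of 3 apart (55.6%), against 48.8% over the list.

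Other genes of chromatin regulation were looked up from a list of 192 symbols outside the letters of the set. Of these, 14 had 17 events, 12 higher and 5 lower, with a median absolute dPSI of 11.4 points, and 9 of the 17 passed Fisher's exact test (52.9%; 7 higher, 2 lower). The share was near the 55.9% of the whole list. A 66-nt exon of Ino80e, a subunit of the INO80 remodeller, was included at 95.7% and 95.8% in control and 78.5% and 77.4% in NOVA2-overexpressing libraries, on 1043 to 1590 reads (Fisher's exact test, adjusted p = 1.62e-84). A 57-nt exon of Gtf2i, a transcription factor, was included at 2.89% and 3.83% in control and 15.5% and 14.2% in NOVA2-overexpressing libraries (Fisher's exact test, adjusted p = 1.49e-10). Meaf6, a subunit of MYST acetyltransferase complexes, had a 34-nt exon whose PSI rose by 11.1 points and a 6545-nt intron whose retention rose by 13.0 points (Fisher's exact test, adjusted p = 8.12e-04 and 0.00121). These genes were picked from the list after their values were seen.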

How the data were processed

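RNA-seq libraries of 2 control and 2 NOVA2-overexpressing mouse EC samples were sequenced by the authors on a HiSeq2500 and aligned to mm9 with vast-tools. The deposited table lists, per event and library, the PSI as a percent, a coverage score running from VLOW over LOW and OK to SOK, and corrected reads for inclusion and exclusion. The authors kept events with a gap of more than 5 points between all libraries of different groups, and events outside that rule are not used here. The authors' own dPSI column, 4 pooled columns and 12 columns of other samples were not used.

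PSI, reads and scores were read for the 4 libraries, and groups were taken from the sample labels. Corrected reads were rounded, summed within a group and compared with a two-sided Fisher's exact test in scipy 1.17.1, adjusted by Benjamini-Hochberg over 1075 events at 0.05. The summed member reads were 5602 and 7182 in control replicates 1 and 2 and 9083 and 8733 in NOVA2-overexpressing replicates 1 and 2. PCR copies cannot be told apart, so intervals cover counting error only. Where PSI was 0 or 100%, 3 reads of the total are given as the limit. Alternatives were limma 3.58.1 in R 4.3.3 on the log2 ratio of reads with a pseudocount of 0.5 or 1, a Cochran-Mantel-Haenszel test with the replicate number as stratum, quasi-binomial regression, filters on the coverage score and junction balance, PSI from summed reads, and each library left out.

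Sequence, exon ends and reading frames came from the mm9 genome and GENCODE vM1. YCAY was counted on the transcribed strand in the exon and 200 nt on each side. Named events are cassette exons whose dPSI was at least 10 points in size, the 5 introns and 5 alternative sites of largest dPSI scored LOW or better throughout, and all events of genes with more than 1. The values of 1 gene of the set are not reported here, although its events stay in the counts. For most others given with values, the text says that they were picked once values were known. Zc3h12c, Taf1d and Zkscan6 were also outside the naming rule and picked in that way. The genes, families and lists were chosen with earlier results of these data known. Python 3.11.15, numpy 2.4.6, pandas 2.3.3 and matplotlib 3.10.9 were used.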

Additional observations from a re-analysis of the deposited data

How the results depend on the processing

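The 42 events that passed Fisher's exact test became 19 in quasi-binomial regression (256 of all 1075 deposited events), 22 when adjustment ran only over events whose dPSI was at least 10 points in size, and 17 to 28 when 1 library was left out. The fewest passed without control replicate 2 (17), followed by control replicate 1 (21), NOVA2-overexpressing replicate 2 (22) and NOVA2-overexpressing replicate 1 (28). Fits with fewer libraries hold fewer reads. limma called 63, and 61 with a pseudocount of 1, and the other filters gave 36 to 43. Of events past 10 points of dPSI there were 36, which became 15 at a threshold of 15, 23 with a score of LOW or better and 16 with OK or better in every library, and 30 to 37 when 1 library was left out. The share with higher PSI, 74.0%, was 60% without alternative splice sites and 88.9% at an absolute dPSI of at least 10. The median absolute dPSI ran from 8.94 to 9.90 points over its alternatives. The deposited list holds no event whose groups overlap, so leaving out a library could not turn a direction. Leaving out a library kept the side of the threshold in 99 of the 148 fits of the 37 named events, and 48 were lost and 1 gained. Quasi-binomial regression, which has few degrees of freedom, lost 18 and gained 2 of the named calls.

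The replicate numbers are not stated to mark a shared batch, and the differences between replicates 1 and 2 did not go together in the 2 groups (Pearson r = 0.00386 across 1075 events, which are not independent). With a replicate block, the Cochran-Mantel-Haenszel test called 47 member events and limma 55, and over all events 644 and 863. The block lost no call among the named events and gained 3, the Chd3 Alt3 site and the Zfp407 exons of 84 and 121 nt.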
